A study of Mus musculus with 13 samples.

Results

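The 4 libraries that carry the replicate letter D were compared with the 9 libraries that carry the letters A, B or C, 13 libraries in all, to see which cell programs differed between cultures of the same line. The rule uses the letter alone, but D was set against the other letters with earlier results of these data known. All libraries came from C2C12, an established mouse myoblast line that fuses into myotubes when the serum is changed. Cells received siRNAs with no target (control KD) or siRNAs against the RNA-binding protein YBX3 (YBX3 KD), and RNA was taken 48 h later. At 24 h the growth medium was kept (proliferating myoblasts, 0 day) or replaced by medium with horse serum (differentiating myoblasts, 1 day). Control KD at 0 day had 3 libraries of A to C and 1 of D, control KD at 1 day had 1 and 1, YBX3 KD at 0 day had 3 and 1, and YBX3 KD at 1 day had 2 and 1. C2C12 is a single immortal line grown on plastic, so these groups are not animals or donors. The labels do not say what the libraries of a letter share. With letters as units the comparison is 1 against 3, for which an exact permutation test cannot give a p-value below 0.25. The p-values given here measure the spread between libraries and are too small as statements about cultures.

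The libraries of D were of ordinary size. Their totals were 33451547 to 41868570 counts, against 36819569 to 71811371 in A to C, and 21047 to 22726 genes had a count, against 21724 to 22902. The scaling factors (TMM, trimmed mean of M values) ran from 0.969 to 1.02 in D and from 0.989 to 1.01 in A to C. Mitochondrial transcripts took 1.42% to 2.91% of the counts in D and 1.94% to 4.40% in A to C, and the 100 most abundant genes took 18.98% to 21.1% and 18.7% to 21.7%. No pair of libraries in a group differed by less than the sampling noise. The siRNA worked in D: Ybx3, the targeted gene, stood at 265 and 294 CPM (counts divided by the TMM-scaled library total and brought to a common total) in the control KD libraries of D and at 37.9 and 28.7 CPM in its YBX3 KD libraries. In A to C, Ybx3 ranged from 311 to 347 CPM in control KD and from 40.3 to 71.5 CPM in YBX3 KD. The D libraries thus lay below those of A to C under either siRNA, with a log2 difference of -0.42 ± 0.13 (SE) for D (adjusted p = 0.0183, edgeR, Benjamini-Hochberg). In 13 of 38 alternative analyses Ybx3 was not called for D, and its log2 difference ran from -0.73 to -0.15 over the 38.

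Myoblasts in growth medium pass through a replication phase and mitosis, and both call on large sets of genes that are transcribed mainly in cycling cells. Growing cells also build ribosomes in the nucleolus, a programme in which the transcription factor MYC is a known regulator. When myoblasts leave the cycle they switch on sarcomere genes under MYOD, myogenin and MEF2. Cholesterol synthesis is governed by SREBP2 and lysosome production by TFEB and its relatives, both in answer to nutrient supply. In bulk RNA, fewer cells of a type and less RNA per cell cannot be told apart.

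D differed from A to C over a large part of the transcriptome. Of 16848 genes tested in edgeR with siRNA and day as terms, 5314 (31.5%) were called for D, where called means a change of more than 1.3-fold in either direction with an adjusted p-value under 0.05. Of these, 2934 (17.4% of genes tested) were higher in D and 2380 (14.1%) were lower. At a fold change above 2, 1461 genes (8.67%) were called. The letter D took 32.4% of the variance of log2 CPM, the siRNA 11.6%, the day 5.51% and the letters A to C among themselves 11.6%. The median log2 difference over all genes tested was 0.01, a value that the TMM scaling holds near 0. At 0 day alone 4396 genes were called, and at 1 day alone, with 2 libraries of D and 3 of A to C, 1 was (5126 at an unadjusted p-value under 0.05).

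The comparison was also made group by group, over all genes tested. The D library lay above every other library of its group in all 4 groups for 3688 genes (21.9% of genes tested) and below every other for 3581 (21.3%). For 1628 genes (9.66%) the 4 libraries of D lay above all 9 of A to C, whatever their siRNA and day, and for 1534 (9.1%) they lay below. Residuals of log2 CPM after removal of group means also tied the D libraries together, with correlations of 0.409 to 0.730 over the 6 pairs of D libraries, against 0.117 to 0.358 over the 10 pairs with the same letter among A to C. Over the 46 pairs of different groups with different letters they ran from -0.587 to 0.419. These correlations are over genes, and each group's residuals sum to 0, so they are given as a description.

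The D libraries did not depart equally far. In a fit that gave each group its own D term, 4727 genes (28.1%) were called for D in control KD at 0 day and 4891 (29%) in YBX3 KD at 1 day. In YBX3 KD at 0 day 1171 genes (6.95%) were called, and in control KD at 1 day 126 (0.748%). In these fits each D library stands alone and is assumed to vary like the libraries of A to C. In control KD at 1 day A to C also have only 1 library. The median absolute log2 difference, which does not depend on the test, was 0.43 in control KD at 0 day, 0.29 in control KD at 1 day, 0.26 in YBX3 KD at 0 day and 0.43 in YBX3 KD at 1 day.

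**Figure D1:**
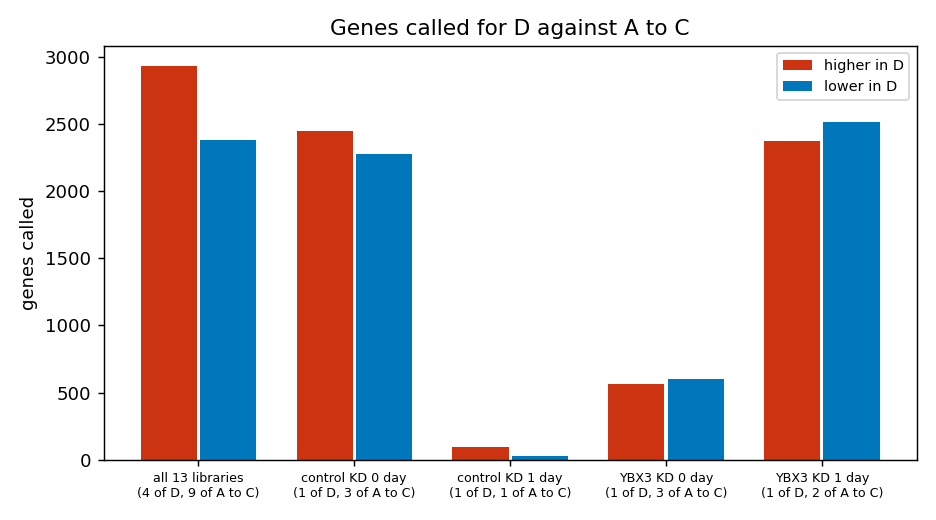
Bars give the number of genes called higher (red) and lower (blue) in D than in A to C (vertical axis, genes) in the fit over all 13 libraries and for the D library of each group. The bars of control KD at 0 day (2449 higher, 2278 lower) and YBX3 KD at 1 day (2373 higher, 2518 lower) are far taller than those of YBX3 KD at 0 day (567 and 604) and control KD at 1 day (97 and 29).

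Genes of the cell cycle were lower in D. All 46 genes of the mitosis list and all 48 of the DNA replication and S phase list were called lower, against 14.1% of all genes, with median log2 differences of -0.92 and -0.95. At an adjusted p-value under 0.001 none of the 46 and 5 of the 48 were called (edgeR), and for the D library of control KD at 1 day by itself none of either list was. The summed level of the mitosis genes was 3463 CPM in the D library of control KD at 0 day, 5846 CPM at 1 day, 3647 CPM in YBX3 KD at 0 day and 1466 CPM at 1 day, against 5520 to 7567 CPM (median 5955) in A to C. The D library of control KD at 1 day lay within the range of A to C, and the other 3 lay below it. The S phase genes summed to 2026, 4151, 2746 and 1263 CPM in the D libraries in the same order of groups, against 3956 to 5593 CPM (median 4586) in A to C, and again control KD at 1 day was the one that overlapped.

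Single genes of these lists are given next. Hmmr, which encodes a spindle-associated hyaluronan receptor, stood at 77.9, 120, 74.7 and 34.1 CPM in D (control KD 0 day, control KD 1 day, YBX3 KD 0 day and YBX3 KD 1 day, the order used from here on) and at 124 to 177 CPM (median 151) in A to C, a log2 difference of -1.04 ± 0.20 (adjusted p = 0.00113, edgeR). Anln, the contractile ring protein anillin, stood at 144, 214, 142 and 64.1 CPM against 233 to 299 CPM (median 246). The 4 D libraries lay below all others for both genes, and YBX3 KD at 1 day was lowest. Bub3, of the spindle checkpoint, was called lower by 0.57 on the log2 scale with overlapping ranges. Among replication genes, Ung, a uracil DNA glycosylase, stood at 4.63, 11.1, 7.99 and 4.50 CPM against 11.5 to 17.9 CPM (median 15.1). Rfc1, of the clamp loader, also lay below all of A to C in the 4 D libraries, and Rpa1, of the single-strand binding complex, overlapped. The replication-dependent histones have messages that lack a poly(A) tail and are poorly sampled after poly(A) selection. None of 28 members was called higher (median -0.49). Called lower were 5 (17.9%), near the 14.1% of all genes. That count was 1, 8 and 2 without the D library of control KD at 0 day, control KD at 1 day and YBX3 KD at 1 day.

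Short motifs known from cycling genes were searched in the promoters of both lists. The promoters were 300 bases long, 250 before and 50 after the RefSeq transcription start on GRCm38.p6, and both strands were searched. The cell cycle homology region, searched as TTTGAA, was found in 30 of 39 mitosis promoters (76.9%), against 14.7% of the 10830 promoters of tested genes that were matched by symbol. An E2F site, searched as TTTGGCGC or TTTCCCGC, was found in 11 of 39 S phase promoters (28.2%), against 3.31%. Windows of 30 bases around a match, with the match in capitals and read along the gene, are shown for 3 mitosis and 3 replication genes. In Anln, Bub3, Pold1 and Pola1 the match is on the opposite strand, so the capitals show its reverse complement. A window may hold a further match in lower case, as that of Anln does.
Hmmr, chr11:40733412-40733441, minus strand: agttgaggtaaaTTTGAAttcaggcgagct
Anln, chr9:22389168-22389197, minus strand: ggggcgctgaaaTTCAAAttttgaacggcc
Bub3, chr7:131560315-131560344, plus strand: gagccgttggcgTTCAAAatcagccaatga
Cdt1, chr8:122568035-122568064, plus strand: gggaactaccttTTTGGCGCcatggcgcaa
Pold1, chr7:44548766-44548795, minus strand: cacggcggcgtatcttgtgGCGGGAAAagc
Pola1, chrX:93632275-93632304, minus strand: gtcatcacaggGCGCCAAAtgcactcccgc
Cdt1 licenses replication origins, and Pold1 and Pola1 encode DNA polymerase subunits. These 3 replication genes were called lower by 0.95, 0.89 and 1.16 on the log2 scale. The genes shown here and below were taken in order of p-value for D among list members with a match. Their calls follow in part from that choice and do not bear on the motif. A match is a run of letters and was not tested as a binding site.

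The cell cycle genes were also where the D libraries differed most from each other. The median log2 difference of the mitosis genes was -1.08 in control KD at 0 day, -0.36 in control KD at 1 day, -0.68 in YBX3 KD at 0 day and -2.03 in YBX3 KD at 1 day, and that of the S phase genes -1.36, -0.37, -0.62 and -1.86. In D the day thus went with a higher level of these genes under control KD and a lower level under YBX3 KD. The interaction of D, siRNA and day was fitted after this pattern had been seen and is no independent test of it. It called 1482 genes, 855 lower (5.07%) and 627 higher (3.72%), and these included all 46 mitosis genes (lower, median -2.10) and all 48 S phase genes (lower, median -2.25). The residual spread of this fit comes from A to C alone and each D library is the only one of its group, so a pattern of the groups and 1 deviating D library cannot be told apart. DESeq2 called 1894 genes. Without the D library of YBX3 KD at 1 day, 43 of the 46 mitosis genes were still called lower for D, with a median of -0.68. With D compared with C alone, 12 of 46 were (median -0.97), in a fit of 8 libraries.

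**Figure D2:**
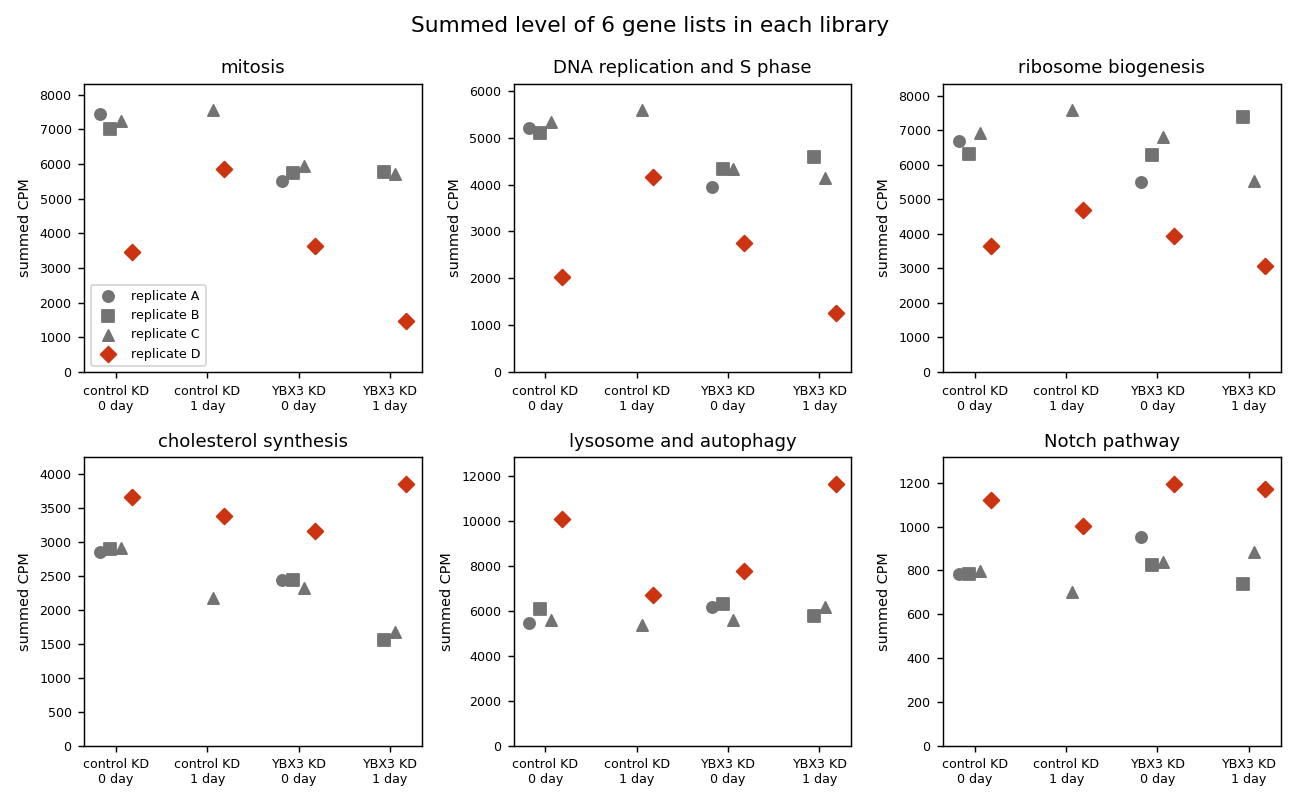
Summed CPM of 6 gene lists (vertical axis, starting at 0) in each of the 13 libraries, by group on the horizontal axis, with D in red and A to C in grey. Ribosome biogenesis lies lower in D than in all of A to C and cholesterol synthesis, lysosome and Notch genes lie higher, while the mitosis and S phase genes range within D from 1466 to 5846 and from 1263 to 4151 CPM.

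Genes of ribosome production were lower in D. Of 46 ribosome biogenesis genes 43 were called lower and none higher (median -0.82), against 14.1% of all genes called lower. Their summed level was 3637, 4685, 3936 and 3055 CPM in D, against 5508 to 7586 CPM (median 6693) in A to C, with no overlap. Gnl3, the nucleolar GTPase nucleostemin, stood at 61.4, 71.1, 80.3 and 63.5 CPM in D and at 113 to 161 CPM (median 129) in A to C, a log2 difference of -0.96 ± 0.11 (adjusted p = 0.000101, edgeR). Noc3l, which takes part in the transport of pre-ribosomes, and Polr1a, the largest subunit of RNA polymerase I, likewise lay below all of A to C in the 4 D libraries, by 0.75 and 0.54 on the log2 scale. The group medians of this list (-1.04, -0.69, -0.63 and -1.06) spanned a narrower range than those of the cell cycle lists. As in those lists, control KD at 0 day and YBX3 KD at 1 day moved furthest. With D compared with C alone 42 of 46 members were called lower.

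Myc itself was lower. It stood at 45.1, 52.96, 48.9 and 40.8 CPM in D and at 77.8 to 140 CPM (median 113) in A to C, a log2 difference of -1.25 ± 0.14 (adjusted p = 9.882e-05, edgeR). The 4 D libraries lay close together and below every other library. MYC and its relatives bind the E-box CACGTG. It was found in 10 of 41 ribosome biogenesis promoters (24.4%), against 11.3% of all promoters searched, and 3 matches are shown in the same format.
Wdr43, chr17:71616220-71616249, plus strand: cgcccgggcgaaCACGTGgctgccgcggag
Nop2, chr6:125131811-125131840, plus strand: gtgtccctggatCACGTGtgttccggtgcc
Mybbp1a, chr11:72441347-72441376, plus strand: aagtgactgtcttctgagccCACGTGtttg
Wdr43 and Nop2 encode factors of ribosomal RNA processing and Mybbp1a a nucleolar protein. Taken in order of p-value among members with a match, they were called lower by 0.94, 1.05 and 0.96 on the log2 scale.

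The rest of the protein synthesis machinery moved less. Over all genes, 14.1% were called lower and 17.4% higher. Of 86 cytosolic ribosomal protein genes 2 were called lower, Rpl7l1 (-0.57) and Rps27l (-0.61), both paralogs of the canonical genes, and none higher (median -0.13). Of 81 mitochondrial ribosomal protein genes 26 were called lower and none higher (median -0.29), and 1 of the 26 is a pseudogene. Without the D library of YBX3 KD at 1 day, 16 were called lower. Aminoacyl-tRNA synthetases, which charge tRNAs, had 7 of 20 members called lower. Their summed level of 2770 to 3291 CPM in D lay below the 3315 to 4169 CPM of A to C. Rars1, the arginine enzyme, stood at 112, 132, 118 and 104 CPM in D against 147 to 196 CPM (median 173). Of 76 translation factor genes 19 were called lower and 1 higher. Among them, Eif2s1, the alpha subunit of eIF2, stood at 95.1, 121, 106 and 87.4 CPM against 135 to 183 CPM (median 163) in A to C.

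Some genes of chaperones and the proteasome were lower, against 14.1% of all genes called lower and 17.4% called higher. Of 45 proteasome genes 18 were called lower and 1 higher (median -0.35). The count of 18 became 11, 29 and 10 without the D library of control KD at 0 day, YBX3 KD at 0 day and YBX3 KD at 1 day. Psmc6, of the base, stood at 126, 128, 117 and 106 CPM in D and at 148 to 200 CPM (median 166) in A to C. Of 22 heat shock genes 11 were called lower and 1, Hspa1a, higher (median -0.38). Hsph1, an HSP110 co-chaperone, stood at 161, 180, 182 and 143 CPM against 255 to 400 CPM (median 332), and Hsp90aa1 was lower by 0.83 on the log2 scale. The D libraries lay below all others for these genes with the exception of Hspa1a. Members of the unfolded protein response (1 higher and 3 lower of 23) and ATF4 targets (9 higher and 2 lower of 30, with 5 higher without the D library of control KD at 0 day) did not move one way.

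Of 32 immediate early genes, which answer serum within minutes, 15 were called lower and 1 higher (median -0.56), against 14.1% and 17.4% of all genes. Their summed levels overlapped (1190 to 1315 CPM in D, 1251 to 2065 CPM in A to C). Fosl1 stood at 36.9, 56.8, 39.8 and 29.97 CPM in D and at 66.4 to 96.0 CPM (median 77.4) in A to C. Targets of p53 went both ways, with 7 of 33 higher and 11 lower. Pmaip1, the proapoptotic NOXA, was higher at 15.1, 9.93, 14.5 and 23.7 CPM against 4.74 to 8.95 CPM (median 7.63). Aen, a nuclease of apoptosis, was lower at 49.3, 53.2, 67.5 and 47.5 CPM against 77.9 to 123 CPM (median 93.4).

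Several genes of the sarcomere and its Z-disc were among the most reduced in D. Of 48 genes of the sarcomere and excitation-contraction coupling, 24 were called lower and 3 higher (median -0.57), against 14.1% and 17.4% of all genes. The group medians were -0.88, -0.94, -0.51 and -0.76. The summed level overlapped (2536 to 3034 CPM in D, 2886 to 3581 CPM in A to C). Sorbs2, a Z-disc adaptor, stood at 0.340, 0.575, 0.775 and 0.512 CPM in D and at 4.71 to 12.7 CPM (median 7.05) in A to C, a log2 difference of -3.73 ± 0.19 (adjusted p = 6.72e-07, edgeR). Xirp2, an actin-binding repeat protein, stood at 0.247, 0.758, 1.41 and 0.384 CPM against 8.30 to 17.2 CPM (median 10.6), lower by 3.86 on the log2 scale. Pdlim3, the actinin-associated LIM protein, stood at 6.42, 5.20, 12.9 and 8.70 CPM against 30.5 to 56.7 CPM (median 44.9). None of the 9 libraries of A to C came near the D libraries for these 3 genes, at 0 day or at 1 day.

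The D libraries also lay below all others for Synpo2l, a Z-disc actin bundler (3.82 to 8.62 CPM in D, 16.1 to 25.7 CPM in A to C), and, by less, for Nrap (0.432 to 2.02 CPM and 2.48 to 5.84 CPM). Myh1, an adult fast myosin heavy chain, stood at 0.587, 1.31, 4.61 and 1.08 CPM in D and at 7.40 to 57.3 CPM (median 14.4) in A to C, a log2 difference of -3.45 ± 0.62 (adjusted p = 0.00082, edgeR). Acta1, the skeletal actin, was called lower by 2.54 on the log2 scale, but its D libraries (0.549 to 3.64 CPM) overlapped those of A to C (3.09 to 34.2 CPM). Myosin and actin genes share sequence with their paralogs, so the division of reads among them is uncertain. Des, the intermediate filament desmin, went the other way at 51.9, 45.2, 43.7 and 54.8 CPM against 15.5 to 25.9 CPM (median 19.03), a log2 difference of 1.35 ± 0.11 (adjusted p = 1.779e-05, edgeR).

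Regulators of myogenesis did not move together. Over all genes, 14.1% were called lower and 17.4% higher. Of 26 genes of myogenic factors and fusion 8 were called lower and 4 higher (median -0.19), with 5 lower when the D library of control KD at 0 day was left out. Their summed level had the other sign: it was higher in D than in the other libraries of the group in all 4 groups, at 2084 to 2460 CPM in D and 1987 to 2436 CPM in A to C. Mef2c stood at 1.36, 2.06, 1.86 and 1.79 CPM in D and at 4.40 to 6.54 CPM (median 5.09) in A to C, a log2 difference of -1.57 ± 0.14 (adjusted p = 2.175e-05, edgeR). Myf5, the early myogenic factor, stood at 31.3, 44.1, 43.7 and 34.2 CPM against 47.7 to 73.5 CPM (median 58.6). Both genes were below all of A to C in every D library. Myod1 was called lower by 0.96 on the log2 scale (adjusted p = 0.00305, edgeR), with D at 0.601 to 1.51 CPM and A to C at 0.912 to 3.32 CPM. Myog, which encodes myogenin, was not called (log2 difference -1.65 ± 0.96, adjusted p = 0.173, edgeR), with D at 0.0523 to 0.537 CPM and A to C at 0.177 to 3.46 CPM. Eya1, a transcriptional coactivator in myogenesis, was higher at 20.4 to 22.1 CPM in D against 9.04 to 15.8 CPM. The 9 tested genes of the 10 myoblast markers summed to 4257 to 5157 CPM in D and 4571 to 5771 CPM in A to C, with 2 called in each direction. Pax7, the satellite cell factor, was at most 0.105 CPM in D and was not tested.

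**Figure D3:**
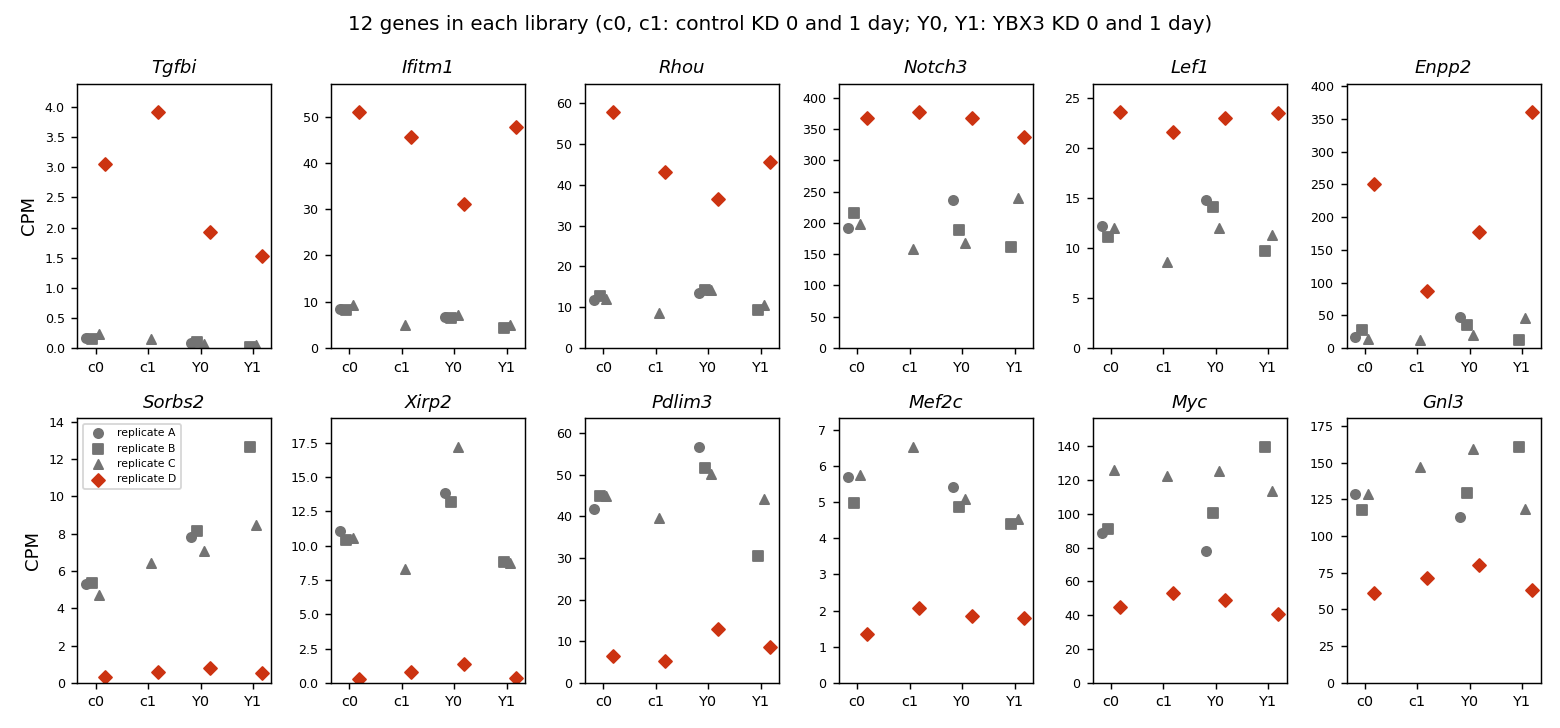
CPM of 12 genes (vertical axes, each starting at 0) in each of the 13 libraries, by group on the horizontal axis (c0 and c1, control KD at 0 and 1 day, Y0 and Y1, YBX3 KD at 0 and 1 day), with D in red and A to C in grey. The 4 D libraries lie above all others for Tgfbi, Ifitm1, Rhou, Notch3, Lef1 and Enpp2, and below all others for Sorbs2, Xirp2, Pdlim3, Mef2c, Myc and Gnl3.

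Of 20 genes of the Wnt pathway 10 were called higher in D and 2 lower (median 0.49), against 17.4% and 14.1% of all genes. Their summed levels overlapped (1092 to 1421 CPM in D, 929 to 1247 CPM in A to C), and for the D library of control KD at 1 day by itself 2 were called. Lef1, a transcription factor at the end of the pathway, stood at 23.6, 21.6, 22.9 and 23.5 CPM in D and at 8.63 to 14.8 CPM (median 11.96) in A to C, a log2 difference of 1.03 ± 0.09 (adjusted p = 1.966e-05, edgeR). Its relative Tcf7 stood at 68.6, 48.9, 44.6 and 65.9 CPM against 24.0 to 28.9 CPM (median 28.2), and the ligand Wnt5a at 7.66, 5.88, 7.78 and 7.75 CPM against 2.70 to 4.81 CPM (median 3.74). Axin2, a negative regulator that the pathway itself induces, was called higher by 1.27, and was looked at after its value had been seen. The D libraries were tightly grouped for Lef1 and did not overlap A to C for Tcf7 and Wnt5a.

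Notch receptors changed in opposite directions. Notch3 stood at 368, 377, 367 and 337 CPM in D and at 158 to 239 CPM (median 192) in A to C, a log2 difference of 0.91 ± 0.11 (adjusted p = 0.000129, edgeR). Notch1 stood at 2.62, 6.06, 5.19 and 2.15 CPM against 7.84 to 12.2 CPM (median 9.79), and Notch2 was higher by 0.57 on the log2 scale with overlapping ranges. Over the 17 genes of the pathway 4 were called higher and 3 lower (median -0.20), against 17.4% and 14.1% of all genes. The summed level, to which Notch2 and Notch3 gave many of the counts, was higher in D (1003 to 1196 CPM) than in A to C (702 to 951 CPM). Median and sum thus differ in sign.

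The lists of this paragraph stand beside 17.4% of all genes called higher and 14.1% called lower. Of 30 TGF-beta and BMP genes 7 were higher and 8 lower, and 5 were lower without the D library of control KD at 0 day or without that of YBX3 KD at 1 day. Among them Tgfbi, a secreted matrix protein induced by TGF-beta, stood at 3.06, 3.92, 1.93 and 1.54 CPM in D and at 0.0177 to 0.226 CPM (median 0.0974) in A to C, a log2 difference of 4.43 ± 0.20 (adjusted p = 5.318e-08, edgeR). Tgfb1, the ligand, stood at 178, 183, 150 and 189 CPM against 88.9 to 144 CPM (median 113). In the IGF system (6 higher and 3 lower of 17), Igfbp2, a binding protein, stood at 79.1, 143, 178 and 93.3 CPM against 35.9 to 62.9 CPM (median 49.7). Igf2, a growth factor of muscle and an imprinted gene, stood at 0.124, 0.627, 0.822 and 0.512 CPM against 2.81 to 14.0 CPM (median 3.24), lower by 3.20 on the log2 scale. The D libraries did not overlap A to C for these 4 genes, which were chosen by p-value. Of all genes, 9.66% lay fully above and 9.1% fully below. Of YAP and TEAD targets, 4 of 24 were higher and 3 lower, with Ankrd1, a titin-associated repeat protein, at 108 to 187 CPM in D against 231 to 621 CPM. Of SRF and MRTF targets, 2 of 28 were higher and 6 lower.

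Matrix genes went both ways, as did all genes (17.4% higher and 14.1% lower). Of 36 fibrillar collagens and their binding proteins 10 were higher and 3 lower, of 23 basement membrane genes 8 and 2, and of 26 matrix proteases and inhibitors 10 and 6. Adamts4, which cleaves aggrecan, stood at 67.0, 30.7, 44.8 and 80.4 CPM in D and at 10.8 to 20.3 CPM (median 14.6) in A to C, higher by 1.94 on the log2 scale. Mmp14, a membrane collagenase, stood at 575, 552, 628 and 597 CPM against 364 to 452 CPM (median 412). Fn1, fibronectin, was called higher by 0.80 with overlapping ranges (6224 to 9258 CPM and 3270 to 6819 CPM). Postn, periostin, was lower at 26.5, 28.4, 34.1 and 29.6 CPM against 47.6 to 67.3 CPM (median 56.6).

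Cholesterol synthesis was the list most uniformly higher in D. Of 25 genes 23 were called higher and none lower, against 17.4% of all genes called higher, with a median log2 difference of 0.71. Their summed level was 3656, 3381, 3163 and 3854 CPM in D and 1552 to 2912 CPM (median 2434) in A to C. In A to C it was 2851 to 2912 CPM in control KD and 2318 to 2443 CPM in YBX3 KD at 0 day, and 2173 CPM, 1552 CPM and 1671 CPM in the 3 libraries at 1 day. The distance between D and A to C was therefore wider at 1 day, with medians of 0.68 and 1.21 against 0.37 and 0.40 at 0 day. The interaction of D and day itself called no gene. Its smallest p-values included Lss and Dhcr7, enzymes of the pathway, with log2 interactions of 0.83 and 0.60 (adjusted p = 0.38 for both, edgeR), and Fads2, a fatty acid desaturase (0.79, adjusted p = 0.27). Without the D library of YBX3 KD at 1 day, 14 of the 25 genes were called higher.

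Srebf2, which encodes SREBP2, stood at 548, 505, 503 and 582 CPM in D and at 232 to 425 CPM (median 337) in A to C, a log2 difference of 0.72 ± 0.10 (adjusted p = 0.000244, edgeR). Lss, lanosterol synthase, stood at 98.0, 98.3, 92.9 and 110 CPM against 36.4 to 81.5 CPM (median 64.0). Neither gene overlapped between D and A to C, and in D neither varied much with siRNA or day. A sterol regulatory element, searched as TCACNCCAC, was found in 1 of 17 promoters of the list (5.88%), against 1.33% of all promoters searched. It was that of Hmgcs1, the synthase at the head of the pathway, called higher by 0.77.
Hmgcs1, chr13:119690204-119690233, plus strand: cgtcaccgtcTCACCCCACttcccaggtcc
Of 19 fatty acid synthesis genes 6 were higher and 2 lower, against 17.4% and 14.1% of all genes. Their summed level did not overlap (5207 to 5873 CPM in D, 2692 to 4929 CPM in A to C). Scd1, a desaturase, stood at 962, 644, 594 and 936 CPM in D against 260 to 517 CPM (median 388).

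Of fatty acid oxidation genes and PPAR targets, 5 of 22 were higher and 2 lower, against 17.4% and 14.1% of all genes. Plin4, a coat protein of lipid droplets, stood at 26.6, 6.98, 16.3 and 47.0 CPM in D and at 1.89 to 4.15 CPM (median 2.56) in A to C, a log2 difference of 3.17 ± 0.32 (adjusted p = 4.721e-05, edgeR). Lpl, lipoprotein lipase, went the other way at 3.12, 1.91, 2.02 and 4.09 CPM against 8.05 to 12.97 CPM (median 9.58). The D libraries spread widely for Plin4, with control KD at 1 day nearest to A to C.

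Lysosome genes were higher in D. Of 35 lysosome and autophagy genes 24 were called higher and none lower (median 0.58), against 17.4% of all genes called higher. The group medians of these genes were 0.77, 0.28, 0.39 and 0.97. Their summed level was 10100, 6686, 7760 and 11660 CPM in D and 5378 to 6293 CPM (median 5782) in A to C, with no overlap, and it was highest in the D libraries in which the cell cycle genes were lowest. Atp6v0d1, of the proton pump, stood at 143, 110, 125 and 168 CPM against 73.7 to 93.8 CPM (median 80.7), a log2 difference of 0.75 ± 0.09 (adjusted p = 0.000112, edgeR). Wipi1, of the autophagosome, and Glb1, beta-galactosidase, were each higher by 0.55 on the log2 scale without overlap. The CLEAR motif of TFEB, searched as TCACGTGA, contains the letters of the E-box searched above. It was found in 5 of 26 lysosome promoters (19.2%), against 2.11% of all promoters searched, and 3 are shown.
Atp6v0d1, chr8:105566050-105566079, minus strand: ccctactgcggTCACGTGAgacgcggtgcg
Ctsa, chr2:164833749-164833778, plus strand: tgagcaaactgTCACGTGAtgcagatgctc
Mcoln1, chr8:3500462-3500491, plus strand: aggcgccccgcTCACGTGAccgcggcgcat
Ctsa encodes cathepsin A and Mcoln1 a lysosomal calcium channel. Taken in order of p-value among members with a match, they were called higher by 0.99 and 0.60.

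The energy, metal and NRF2 lists stand beside 17.4% of all genes called higher and 14.1% called lower. Of 22 glycolysis genes 6 were called higher and none lower (median 0.26). That count was 3 without the D library of control KD at 0 day and 10 without that of control KD at 1 day. Of 20 hypoxia targets 8 were called higher and none lower (median 0.39), with 4 higher without the D library of control KD at 0 day. Among them Ddit4, an inhibitor of mTOR signalling, stood at 160, 95.4, 82.3 and 118 CPM in D against 37.6 to 83.0 CPM (median 58.9). Respiratory chain genes moved little. Of 83 nuclear subunits 6 were higher and 2 lower (median -0.06), and of 13 mitochondrial transcripts 1 was lower. Iron genes were split between Slc40a1, the iron exporter ferroportin (42.2 to 106 CPM in D, 13.2 to 30.6 CPM in A to C), and Tfrc, the transferrin receptor (102 to 126 CPM and 140 to 245 CPM). Of all metal genes listed, 6 of 18 were higher and 2 lower. NRF2 targets were called higher for 9 of 35 and lower for 5.

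**Figure D4:**
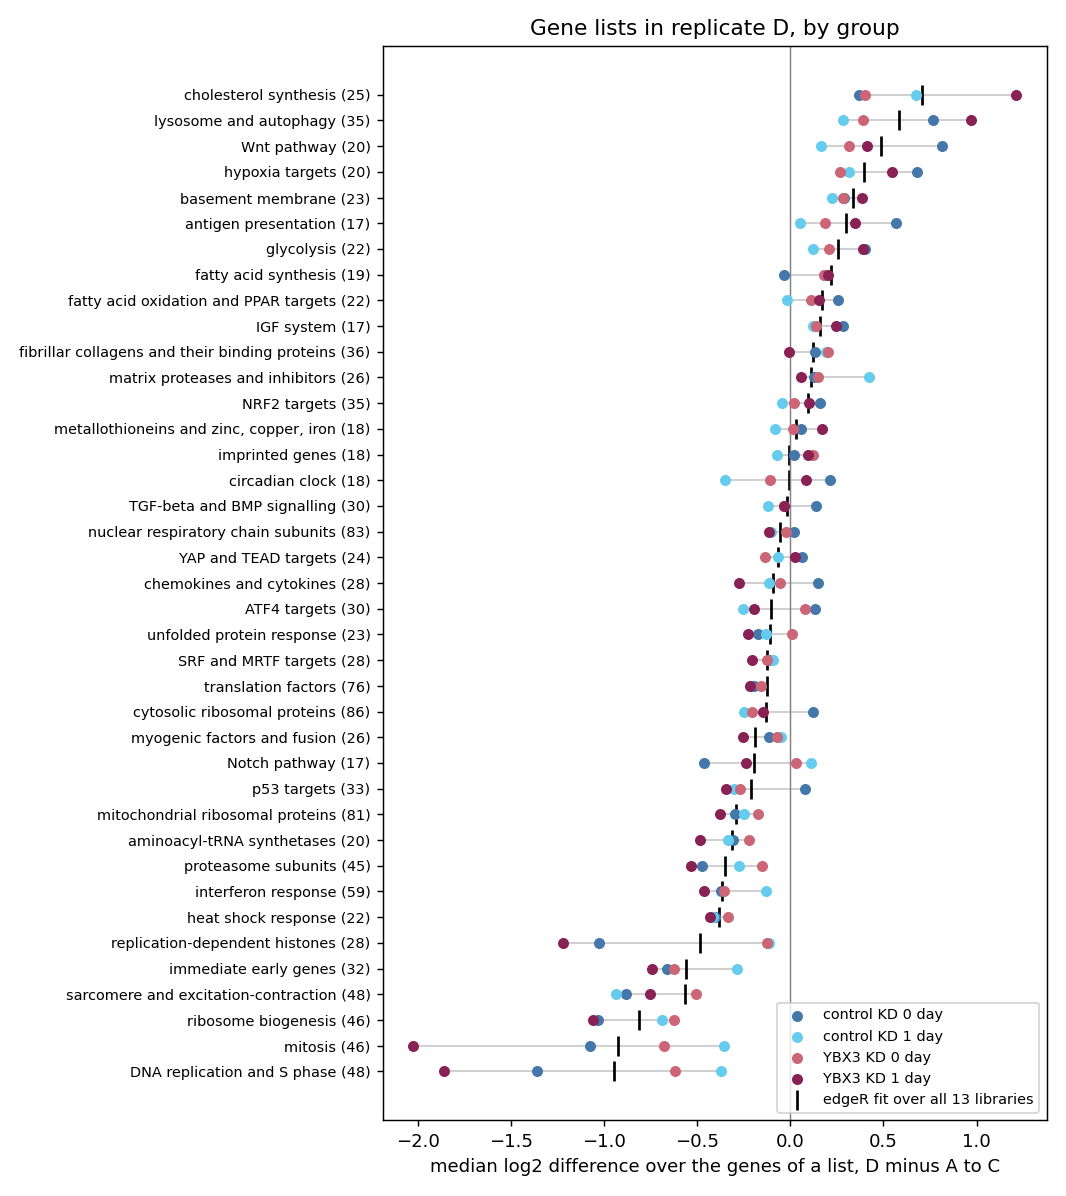
For each list of 15 or more tested genes (number in brackets), coloured points give the median log2 difference between the D library of a group and the mean of the other libraries of that group, and the black bar the median of the fit over all 13 libraries (horizontal axis, log2). The points of the mitosis list run from -2.03 to -0.36 and those of ribosome biogenesis from -1.06 to -0.63, while those of cholesterol synthesis run from 0.37 to 1.21 and those of the lysosome from 0.28 to 0.97.

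Of 59 interferon response genes 19 were called lower and 8 higher (median -0.37), against 14.1% and 17.4% of all genes. Their summed levels overlapped (671 to 933 CPM in D, 685 to 1140 CPM in A to C). The count of 8 fell to 3 without the D library of control KD at 0 day, to 4 without that of YBX3 KD at 1 day, and to 5 without C of control KD at 1 day or B of YBX3 KD at 1 day. Oas1a, an antiviral RNA sensor, stood at 0, 0.0523, 0.165 and 0.179 CPM in D and at 0.563 to 2.61 CPM (median 1.07) in A to C. Oas3 was lower by 3.36 on the log2 scale, at 0.0235 to 0.102 CPM in D against 0.252 to 1.69 CPM. Slfn2 was higher by 1.33, at 1.05 to 2.15 CPM against 0.251 to 0.931 CPM. Of 28 chemokines and cytokines 9 were higher and 10 lower. Ccl7, a monocyte attractant, stood at 19.7, 22.7, 31.2 and 30.2 CPM in D against 36.2 to 58.4 CPM (median 41.4), while the complement component C3 stood at 1.95, 0.340, 0.752 and 2.56 CPM against 0 to 0.295 CPM. Neither gene overlapped between D and A to C. Antigen presentation genes were called higher for 2 of 17 and lower for none.

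Clock, hormone and imprinted genes went both ways. In either direction 66.7% of clock genes, 71.4% of glucocorticoid targets and 27.8% of imprinted genes were called, against 31.5% of all genes. Of 18 clock genes 7 were higher and 5 lower. Nr1d1, the repressor REV-ERB alpha, stood at 18.7, 20.9, 20.8 and 13.4 CPM in D and at 36.1 to 53.1 CPM (median 41.1) in A to C, and Per2 was lower by 0.81 on the log2 scale. Glucocorticoid targets had 7 of 14 higher and 3 lower. Cdkn1c, the cell cycle inhibitor p57 and also an imprinted gene, stood at 0.895, 0.941, 0.869 and 1.18 CPM in D against 0.0911 to 0.291 CPM (median 0.137), a log2 difference of 2.38 ± 0.24 (adjusted p = 5.038e-05, edgeR). Of 18 imprinted genes 4 were lower and 1 higher. Of 11 nuclear retained RNAs 2 were higher and 3 lower, with Neat1, the scaffold of paraspeckles, at 1285, 587, 1229 and 1551 CPM in D and 162 to 802 CPM (median 308) in A to C.

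Few markers of other cell types had enough counts to be tested. Over all genes, 17.4% were called higher and 14.1% lower. Of 12 adipocyte markers 2 could be tested, 1 was called lower, and 8, with Adipoq, Plin1 and Lep among them, had no count in any D library. The adipocyte list summed to 16.7 to 33.96 CPM in D and 17.5 to 30.5 CPM in A to C, most of it Pparg. Of 12 blood cell markers 5 were tested and 1, Fcer1g, was called higher at 0.183 to 0.376 CPM, and 5 had no count in D (sums of 11.4 to 13.6 CPM in D and 12.9 to 15.7 CPM in A to C). Of 10 endothelial markers 3 were tested and none called, and 2 had no count in D (sums of 1.39 to 2.91 CPM and 1.23 to 2.43 CPM). Of 11 neural and glial markers 4 were tested and 1, Map2, was called lower, and 3 had no count in D (sums of 33.7 to 62.5 CPM and 47.3 to 70.9 CPM). Of 14 chondrocyte and osteoblast markers 9 were tested, 3 were called higher and 1 lower (sums of 1183 to 2312 CPM and 1248 to 2326 CPM). The part of other cell types in the results was not tested.

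Of 10 epithelial markers 3 were tested and all 3 were called higher, against 17.4% of all genes. Their sum was 23.8 to 35.4 CPM in D and 7.73 to 11.8 CPM in A to C. Most of these counts fell on Krt14, a keratin, which stood at 22.4, 20.8, 29.8 and 18.2 CPM in D against 4.43 to 9.36 CPM (median 7.50). Krt8 was higher by 1.61 on the log2 scale without overlap. Krt19 was higher by 0.39 with overlapping ranges (1.66 to 1.91 CPM in D, 1.07 to 1.91 CPM in A to C). Its call was lost in 24 of 38 alternative analyses. The defining epithelial genes Epcam, Cldn3 and Esrp1 had no count in D, and Cdh1 was at most 0.0784 CPM. Alpl, an alkaline phosphatase of bone and the gene with the smallest p-value of the osteoblast list, stood at 0.741, 0.314, 1.15 and 1.20 CPM in D and at 0 to 0.0806 CPM (median 0.0353) in A to C. Its log2 difference was 4.78 ± 0.30 (adjusted p = 1.506e-09, edgeR).

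The genes with the smallest p-values among those of at least 1 CPM came from no single list. Ifitm1, an interferon-induced membrane protein, stood at 51.0, 45.5, 31.1 and 47.7 CPM in D and at 4.40 to 9.23 CPM (median 6.72) in A to C, a log2 difference of 2.76 ± 0.15 (adjusted p = 6.984e-07, edgeR). Rhou, a small GTPase, stood at 57.9, 43.2, 36.6 and 45.7 CPM against 8.61 to 14.3 CPM (median 11.9). Tbc1d16, a Rab GTPase activator, stood at 73.0, 48.2, 62.6 and 73.8 CPM against 18.8 to 26.3 CPM (median 21.2). For the 3 genes every D library lay above every other library, against 9.66% of all genes, but they were chosen by p-value.

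Of the other genes of this kind that were higher, Bdkrb2, a bradykinin receptor, and Tnfrsf11b, the decoy receptor osteoprotegerin, differed by 2.68 and 2.93 on the log2 scale, and Sox4, a transcription factor, by 0.71. Xpnpep2, Pate14, Grb14, Wdr6, Spock2 and Lrrn3 differed by 0.90 to 2.57, also without overlap. Among genes of at least 5 CPM, Enpp2, the secreted lipase autotaxin, had the largest called increase. It stood at 251, 87.6, 177 and 361 CPM in D against 12.02 to 47.1 CPM (median 20.8), a log2 difference of 3.21 ± 0.35 (adjusted p = 7.448e-05, edgeR). Bmf, a proapoptotic BCL2 relative, and Itga10, a collagen receptor, were likewise higher in the D libraries of control KD at 0 day and YBX3 KD at 1 day than in the other 2, with 30.7, 8.28, 7.64 and 28.7 CPM for Bmf and 31.4, 8.31, 11.5 and 31.4 CPM for Itga10.

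Of the genes with the smallest p-values that were lower and are not described above, Satb1, a chromatin organizer, stood at 1.95, 1.96, 2.16 and 1.95 CPM in D and at 4.11 to 5.61 CPM (median 4.62) in A to C. Tmem182, a muscle membrane protein, stood at 0.309 to 0.963 CPM against 1.55 to 5.61 CPM. Fhl1, a LIM protein of muscle, Mbnl3, a splicing regulator, Zfpm2, a GATA cofactor, and Tomm5, of the mitochondrial import pore, were lower by 0.88, 0.67, 0.73 and 0.86 on the log2 scale. All 6 lay below A to C in the 4 D libraries, against 9.1% of all genes, but they were chosen by p-value.

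Base composition moved with the difference. Over 5 equal bins of genes by GC content, the median log2 difference was -0.04 in the lowest bin, where 12.8% of genes were called higher and 16.5% lower, and 0.12 in the highest, where 24.7% were called higher and 9.64% lower. Its part in the results was not tested.

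Accounting for D changed the number of genes called for YBX3 KD. With D as a term, 1000 genes (5.94%) were called for YBX3 KD against control KD, and without it 285 (1.69%), of which 283 were also called with the term. Whether the YBX3 KD effect itself differed between D and A to C was asked by the interaction of D and siRNA, which called no gene (0% of genes tested, 254 at an unadjusted p-value under 0.05) in edgeR and 1 in DESeq2. Its smallest p-values belonged to Nnt, Inpp5j and Gm13690 (log2 interactions of 2.20, 1.56 and 2.62) and to Psrc1, Def6 and Cd80 (-0.57, -0.69 and -0.61), with an adjusted p of 1 for each in edgeR. The interaction of D and day called no gene in edgeR (0%, 326 at an unadjusted p-value under 0.05) and 19 in DESeq2, with Npr3 (-1.05), Angptl4 (-0.71) and Ptpn22 (-0.68) as the genes of smallest p-value in the negative direction. The day itself, with D as a term, called no gene in edgeR (0%, 1221 at an unadjusted p-value under 0.05) and 11 in DESeq2. With any one of the 4 D libraries left out, many genes were called for each interaction, so the counts of 0 depend on having all 4. In such a fit the D terms match the remaining D libraries exactly, and the residual spread comes from A to C alone. Its counts are therefore not comparable with those of the full fit. These 2-way interactions average over the third factor, and their counts stand beside the 1482 genes called for D by siRNA by day.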

How the data were processed

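RNA from the 13 libraries was sequenced from poly(A)-selected, stranded libraries. The authors quantified the reads with Salmon against GRCm39 (Gencode M30) and deposited the estimated counts of each gene, whole and not normalized. The Salmon version is not given in the sources used here. Of 55642 genes listed, 30314 had a count and 16848 passed edgeR's filterByExpr on the 4 groups. The main tool was edgeR 4.0.16 in R 4.3.3 (TMM, glmQLFit and glmQLFTest with siRNA, day and D as terms, Benjamini-Hochberg adjustment), and with limma 3.58.1 and DESeq2 1.42.0 as alternatives. Calls needed a change beyond 1.3-fold, the study's threshold, with an adjusted p-value under 0.05. Lists were described by counts and medians over their tested members. Untested members had too few counts. CPM are not divided by gene length, so levels were not compared between genes.

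The letters and the 49 lists were chosen with earlier results of these data known. The genes named were the 12 of smallest p-value in each direction at a mean of at least 1 CPM, the 5 of largest change in each direction at a mean of at least 5 CPM, the 3 of smallest p-value in each list and for each interaction and direction, Ybx3, Myod1, Myog and Myh1. Because most were chosen by their p-value for D, a lack of overlap in them follows in part from the choice. The result of 1 gene under this rule does not appear here. Hspa1a, Axin2, and the genes shown for a promoter match but not named by this rule, were chosen after their values were seen. Letters were taken from the column names, since the number in a title gives another replicate at 1 day. All 16 pairs of libraries of different groups with the same letter had a residual correlation above 0.1 (0.117 to 0.730), and the 10 such pairs of A to C were among them. Of the 46 pairs of different groups with different letters 11 had as well, up to 0.419. After siRNA, day and D were removed as terms, 3 of the 10 pairs had, and so had 4 of 19 pairs with different letters among A to C. These values alone do not show that a letter links libraries of A to C. Promoters came from RefSeq (GRCm38.p6). The main fit was run on simulated counts in which 200 of 16848 genes were changed in D. At a log2 change of 0.5 it called 36% of them, with 7 false calls. At a change of 1 it called 64.5%, with 8 false calls. The simulated libraries were independent, so this does not address what the libraries of a letter share.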

Additional observations from a re-analysis of the deposited data

Results flagged for a closer look

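The interaction of D, siRNA and day called 1482 genes. It was fitted after the pattern of the cell cycle genes had been seen and sets 4 single D libraries against the spread of A to C, so a pattern of the groups and 1 deviating D library cannot be told apart. Of all genes tested, it called 3.72% higher and 5.07% lower. Besides the cell cycle lists, it called 14 of 35 lysosome genes higher and none lower, and 7 of 25 cholesterol genes higher and 1 lower. It also called 5 of 46 ribosome biogenesis genes lower, and 3 of 45 proteasome genes, which is near the share of all genes. There is no fit without one of the D libraries, since each is the only one of its group.

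Summed levels of the 49 lists were examined in the 2 groups with 4 libraries, 98 sets of 4 in all. One library stood far from the other 3 in 16 of them, and in 15 of these it was that of D. For a single set, chance sets off this rule in about 1 of 20. That rate is no baseline for the 16, because the sets of a group share the same 4 libraries. The lists and D were also chosen with earlier results known. In control KD at 0 day the D library was low for mitosis (3463 CPM, others 7001 to 7436), S phase (2026, others 5103 to 5329), ribosome biogenesis (3637, others 6303 to 6918), aminoacyl-tRNA synthetases (3101, others 3654 to 3764) and neural and glial markers (33.7, others 61.7 to 64.6). It was high for cholesterol synthesis (3656, others 2851 to 2912), basement membrane (6828, others 5205 to 5318), TGF-beta and BMP signalling (3221, others 2581 to 2669), Notch pathway (1120, others 782 to 799), circadian clock (804.5, others 644 to 664) and adipocyte markers (27.4, others 17.5 to 18.4). In YBX3 KD at 0 day the D library was low for mitosis (3647, others 5520 to 5955) and neural and glial markers (62.5, others 70.0 to 70.9), and high for cholesterol synthesis (3163, others 2318 to 2443) and epithelial markers (35.4, others 10.0 to 11.7). The only such library outside D was C of control KD at 0 day, high for ATF4 targets at 3083 CPM.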

How the results depend on the processing

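The 5314 genes called for D became 806 with the title number as a term beside D, 2078 at an adjusted p-value under 0.001, 1461 at a fold change above 2, 8252 with no fold threshold, 3521 in control KD alone, and 1 (5126 at an unadjusted p-value under 0.05) at 1 day alone, where 5 libraries remain. The title number of the D libraries at 0 day occurs in no other library. With that term the D difference therefore rests on the D libraries at 1 day. DESeq2 (5334), limma-voom with sample weights (3934) and the other scalings, filters, terms and subsets run gave counts within 1.5 times of 5314, and leaving out each library in turn gave 4110 to 5883. With the letters as a replicate block 5087 were called, 4953 of them shared, and with a random block 5791. Neither fit makes letters the units for D, since D is itself 1 letter. The consensus correlation of libraries of a letter in the random-block fit was negative, at -0.0961. Upper-quartile scaling moved the share called higher from 55.2% to 59.8%.

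DESeq2 called 1 gene for D by siRNA and 19 for D by day. In edgeR, a fit without 1 of the D libraries matches the remaining D libraries exactly. The residual spread of such a fit comes from A to C alone. Leaving out a library gave 0 to 1292 for D by siRNA and 0 to 1264 for D by day, and the counts above 1 arose without a D library. Without that of control KD at 0 day they were 1281 and 765, of control KD at 1 day 407 and 790, of YBX3 KD at 0 day 1292 and 1264, and of YBX3 KD at 1 day 397 and 1247.

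Genes that were not called for D and changed sign were Pparg (-0.012 with voom weights, -0.2024 with title numbers, -0.0417 to 0.4184 leaving out a library), Ptpn22 (-0.2321 with title numbers, -0.2148 at 1 day alone), Tek (0.0188 at 0 day alone, 0.0525 in control KD alone, -1.0021 to 0.0868 leaving out a library), Flt1 (-0.0192 in control KD alone, -0.0139 to 0.5269 leaving out a library), and in control KD alone Nnt (-1.0387), Inpp5j (-0.3452) and Psrc1 (0.0189). Gm13690 gave 0.8119 in YBX3 KD alone, 0.1864 without letter C, 0.1235 without control KD at 1 day (an alternative added after seeing the data) and -0.7577 to 0.0666 leaving out a library. Over the named genes and all alternatives, a call was lost in 491 results and gained in 58, while 6290 stayed the same. Of the 49 list medians 36 kept their sign under every alternative, mitosis, S phase, ribosome biogenesis, sarcomere, Wnt, cholesterol and lysosome among them. The cause was not tested.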
